A study of Mus musculus with 12 samples.

Results

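Ppp3ca encodes the alpha form of the catalytic subunit of calcineurin, the protein phosphatase that is switched on by calcium and calmodulin. The locus described here is chromosome 3 from 136283000 to 136651000 in the mouse build mm9, which takes in the gene, starting near 136333000 and reading towards higher coordinates, and about 50 kb on each side. All peaks that overlapped it in the 12 peak lists were taken and merged wherever they shared at least 1 bp, which gave 64 regions of the 170710 in the series. The locus was chosen by the measured presence of peaks in E1 and E0 libraries, because regions present in all E1 and no E0 libraries lay close together there. The E1 against E0 values below are therefore a description with no test. The other comparisons share the E0 or the E1 libraries with that choice and are also given without a test.

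Calcineurin is abundant in forebrain neurons, where calcium entering through glutamate receptors and voltage-gated channels activates it. It removes phosphate from the NFAT transcription factors, which then enter the nucleus, and from synaptic proteins whose dephosphorylation is linked to long-term depression. The catalytic subunit works together with a calcium-binding regulatory subunit, and the complex is the target of the immunosuppressants cyclosporin and FK506.

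The study asked how accessible chromatin in the adult dentate gyrus, the hippocampal field of the granule neurons, changes when neurons are activated. ATAC-seq was used, in which a transposase cuts open DNA, and a peak is a stretch where such cuts pile up. Per the labels, every library was made from 1 C57BL/6 mouse aged 8 weeks by microdissection of the dentate gyrus, and the titles give the groups E0, E1 and E4 with 4 replicates each. The labels do not define these names; from what is known of the study, E0 mice were unstimulated and E1 and E4 mice were taken 1 h and 4 h after electroconvulsive stimulation. Microdissected tissue holds other cells beside granule neurons, and a peak found in more libraries may mean more open copies per cell or more cells of a kind. The dissection was not checked against marker genes, since no mm9 position of a gene other than Ppp3ca was used.

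The lists on chromosomes 1 to 19 and X held 36861 to 77130 peaks in E0, 64152 to 84776 in E1 and 24426 to 104120 in E4, where replicate 1 had the 104120 and the others at most 34863. Read depth is unknown, and a longer list reaches weaker peaks, so the number of peaks is also given per 10000 peaks of the list and with every list reduced to its 24426 highest scores. The score is the authors' value per peak, at least 50 in every list, and is used here as a percentile, the share of the library's own peaks that score the same or lower. Percentiles rank peaks within a list, and lists of different length cannot be compared by them as levels. No list repeated another, the most similar pair being E1 replicates 1 and 2 with 0.552 of their joint peak length shared.

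In gene order on the GRCm38 annotation, Ppp3ca is preceded by the long non-coding RNA gene 1700030L20Rik and followed by 1700006H20Rik, also non-coding, and the pseudogene Gm9409. The nearest protein-coding neighbours are Bank1 and Emcn. That annotation is of another build, so the regions are placed only by their distance from the start of Ppp3ca, and not by exon or intron. Of the 64 regions, 55 lay within the approximate extent of the gene, 3 before it and 6 after it. Their widths ran from 156 to 3705 bp with a median of 532 bp.

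E1 libraries had more peaks at the Ppp3ca locus than E0 libraries, and most of the additional peaks lay inside the gene, between 50 and 200 kb from its start. The number of peaks was 13, 19, 9 and 8 in E0 replicates 1 to 4, 30, 33, 26 and 26 in E1 replicates 1 to 4, and 28, 9, 4 and 9 in E4 replicates 1 to 4. All E1 values lay above all E0 values, whereas E4 replicate 1 stood among the E1 libraries and the other E4 libraries among or below those of E0. The means were 28.75 ± 3.40 peaks in E1 against 12.25 ± 4.99 in E0 (SD, n = 4), a ratio of 2.35, and the lists themselves differed in length by a ratio of 1.37. E4 libraries averaged 12.5 ± 10.6 peaks (SD, n = 4), 1.02 times the E0 mean and 0.435 times the E1 mean. Without E4 replicate 1 the E4 mean was 7.33.

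Set against the length of its list, each E1 library held more peaks at Ppp3ca than any E0 or E4 library. Per 10000 peaks there were 2.12, 2.46, 2.44 and 1.78 in E0 replicates 1 to 4, 3.54, 3.97, 3.69 and 4.05 in E1 and 2.69, 2.58, 1.64 and 2.84 in E4. The E1 range thus overlapped neither of the other groups, and E4 replicate 1, with the longest list, fell with E4 replicates 2 and 4. Group means were 3.81 ± 0.241 in E1 against 2.20 ± 0.323 in E0 (SD, n = 4), a ratio of 1.73. For E4 the mean was 2.44 ± 0.542 (SD, n = 4), 1.11 times that of E0. As a share of the peaks on chromosome 3, the locus took 0.522 to 0.637% in E1, against 0.257 to 0.387% in E0, and 0.245 to 0.451% in E4.

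**Figure D1:**
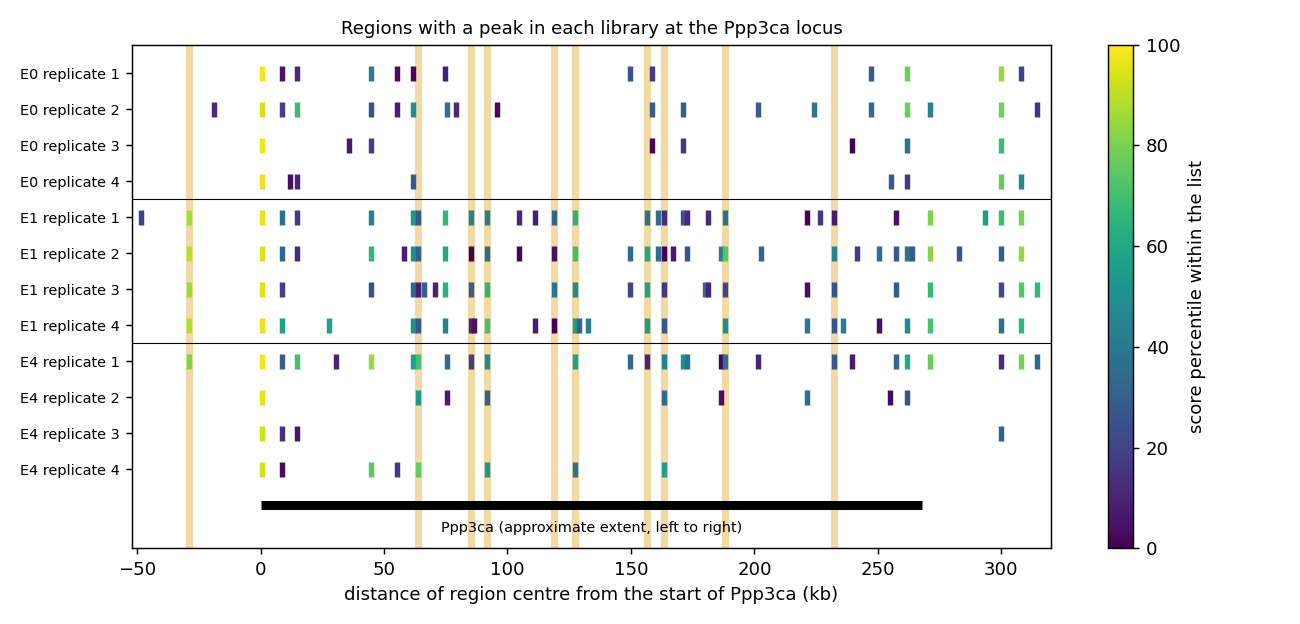
Regions with a peak in each library along the Ppp3ca locus; the x axis is the distance of the region's centre from the start of the gene in kb, each row is a library in the order E0, E1, E4, ticks are regions with a peak, and their colour is the score percentile within the list. Pale bands mark the 10 regions with a peak in 4 of 4 E1 and 0 of 4 E0 libraries, 8 of which lie between 63.7 and 188 kb.

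Peaks covered 8249, 14098, 3385 and 3657 bp in E0 replicates 1 to 4, 18383, 24622, 13112 and 10319 bp in E1 and 21193, 3128, 1727 and 3115 bp in E4, out of the 368001 bp of the locus. Unlike the number of peaks, covered length overlapped between E1 and E0, since E1 replicates 3 and 4 lay below E0 replicate 2. The covered share was 4.51 ± 1.71% in E1 against 1.997 ± 1.37% in E0 and was 1.98 ± 2.52% in E4 (SD, n = 4). Within a group, libraries differed in the width of their peaks as well as in the number. The median width of peaks at the locus was 318 to 590 bp in E1, against 278 to 575 bp in E0, and 232 to 593 bp in E4, so the groups overlapped.

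The difference in number was not spread evenly along the gene. In the first 50 kb from the start, E1 libraries had 3.50 ± 0.577 peaks against 3.75 ± 0.5 in E0 libraries (SD, n = 4), with 3 or 4 in every library of both groups. Between 50 and 200 kb, a stretch chosen after its values were seen, there were 5, 7, 2 and 1 peaks in E0 replicates 1 to 4, 16, 17, 15 and 14 in E1 and 13, 5, 0 and 5 in E4. That stretch averaged 15.5 ± 1.29 peaks in E1 against 3.75 ± 2.75 in E0 (SD, n = 4), and the rest of the locus 13.25 ± 2.22 against 8.5 ± 2.38. The 50 kb from 100 to 150 kb held 16 peaks over the 4 E1 libraries, 1 over the 4 E0 libraries and 3 over the 4 E4 libraries.

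**Figure D2:**
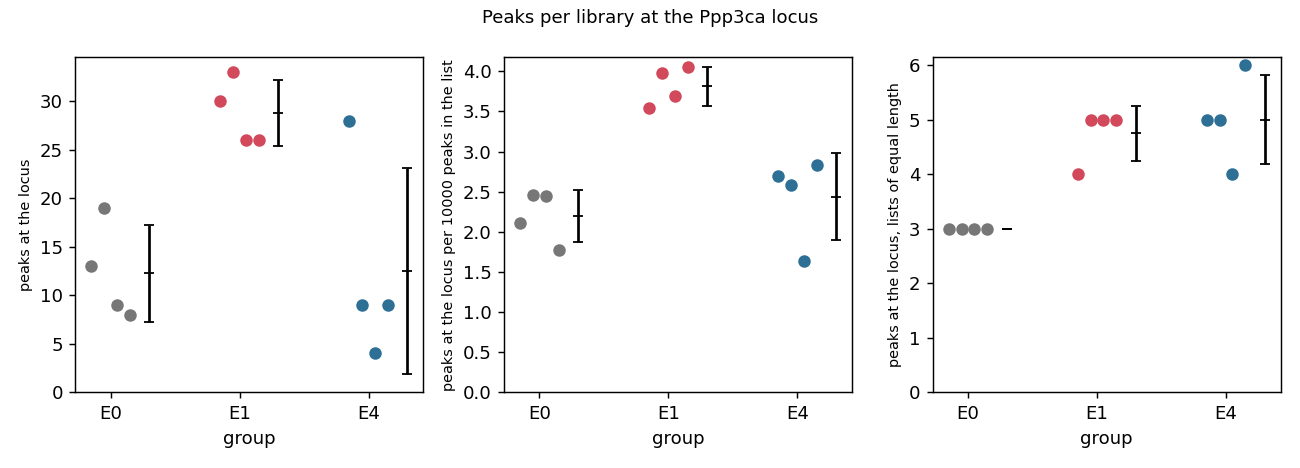
Peaks at the Ppp3ca locus in each library, as the number in the list (left), per 10000 peaks of the list (middle) and with every list reduced to its 24426 highest scores (right); points are the 4 libraries of each group, and the bar beside them is the mean with its SD. All E1 points lie above all E0 points in each panel. With lists of equal length every E0 library has 3 peaks, and all E4 points also lie above them.

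The region with the highest mean percentile in each group was the one that holds the start of Ppp3ca, where the promoter lies, from 136331770 to 136335474 (3705 bp), and it was the only region of the locus with a peak in all 12 libraries. Its percentiles were 97.9, 93.8, 98.1 and 97.6 in E0 replicates 1 to 4, 96.8, 94.7, 95.6 and 96.8 in E1 and 98.4, 96.1, 92.8 and 93.2 in E4. The groups overlapped, with means of 96.0 ± 1.02 in E1 against 96.8 ± 2.04 in E0 and 95.1 ± 2.65 in E4 (SD, n = 4). Its width differed more: the peaks summed to 2973, 3359, 1234 and 1222 bp in E0 replicates 1 to 4, 3277, 3705, 2987 and 2398 bp in E1 and 3327, 1016, 1056 and 1296 bp in E4. In E0 and E4 the longest lists, those of E0 replicates 1 and 2 and E4 replicate 1, had the widest peaks there. The order did not hold throughout. The longest E1 list, that of replicate 1 (84776 peaks), had a narrower peak than replicate 2 (83034). Among the other E4 libraries, replicate 2 had the longest list (34863) and the smallest width. E4 replicate 4 had 2 separate peaks in the region.

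At Ppp3ca 10 regions were gained at E1, that is, present in 4 of 4 E1 and 0 of 4 E0 libraries. No region was lost, that is, absent in all E1 and present in all E0 libraries. The gained ones were 16.1% of the 62 regions at Ppp3ca with a peak in any of the 8 libraries, beside 3.71% of the 150204 such regions in the series, and the share lost was 0.206% in the series. All 10 regions at Ppp3ca that were found in 4 of the 8 libraries were gained ones, beside 38.4% in the series. The rule rests on this contrast, so nothing is read from these shares. In 42 of the 62 regions (67.7%) more E1 than E0 libraries had a peak, beside 51.7% in the series, and in 16 (25.8%) fewer did, beside 26.7%.

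The gained region before the gene had the highest ranks of the 10. It lay 28.9 kb before the start of Ppp3ca, from 136303801 to 136304391 (591 bp), with percentiles of 86.5, 89.8, 85.0 and 88.6 in E1 replicates 1 to 4 and scores of 329, 391, 213 and 243. E4 replicate 1 had a peak at percentile 81.0 there and the other E4 libraries had none. Its E1 values spread little, 87.5 ± 2.14 (SD, n = 4).

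The other 9 gained regions lay within the gene, with lower ranks. The region at 63.7 kb (136396089 to 136397318) had percentiles of 28.5, 31.2, 7.75 and 27.4 in E1 replicates 1 to 4 and of 70.5, 54.2 and 75.8 in E4 replicates 1, 2 and 4. At 85.1 kb (136417678 to 136418514) the E1 percentiles were 43.7, 0.0590, 29.1 and 10.9, and E4 replicate 1 alone of its group had a peak, at 18.6. E1 replicate 2 scored 50.1 in that region, next to the lowest score of its list, so the call there rests on a peak barely within the list. Much the same holds for 2 regions given below. E1 replicate 4 scored 50.8 at 119 kb, and E1 replicate 2 scored 50.5 at 163 kb. At 91.8 kb (136424421 to 136425092) the percentiles were 41.6, 33.3, 64.5 and 70.8 in E1, and 47.6, 30.9 and 52.7 in E4 replicates 1, 2 and 4.

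Further into the gene, the region at 119 kb (136451660 to 136452154) had percentiles of 31.9, 4.33, 39.4 and 0.765 in E1 replicates 1 to 4 and no peak in any E4 library. The region at 127 kb (136459777 to 136460622) stood higher, at 64.6, 69.8, 48.0 and 54.6 in E1, with 57.0 and 36.9 in E4 replicates 1 and 4. At 156 kb (136489224 to 136489677) the E1 values were 37.6, 60.2, 58.5 and 55.0, and E4 replicate 1 stood at 10.3. Of the 9 gained regions inside the gene, those at 127, 156 and 91.8 kb had the highest E1 means, 59.2 ± 9.81, 52.8 ± 10.4 and 52.5 ± 18.0 (SD, n = 4), which do not differ beyond their spread.

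The region at 163 kb (136495628 to 136497245) had the lowest mean E1 rank of the 10, with percentiles of 13.6, 0.737, 15.7 and 28.0, and had 43.6, 33.4 and 56.6 in E4 replicates 1, 2 and 4. At 188 kb (136520688 to 136521279) the values were 37.3, 73.6, 20.7 and 48.9 in E1 and 35.6 in E4 replicate 1. The region at 232 kb (136564775 to 136565424) had 8.03, 45.4, 25.3 and 26.9 in E1 and 28.0 in E4 replicate 1. E1 replicates disagreed most at 188 kb, where, of the 10 regions, the SD of the percentile was largest, at 22.2.

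**Figure D3:**
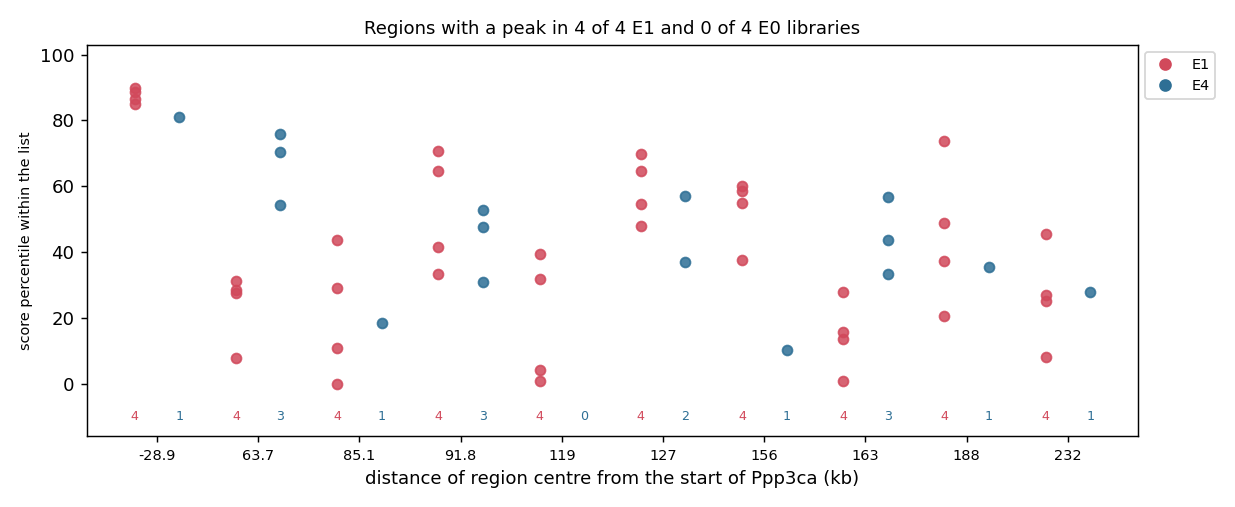
Score percentiles at the 10 regions with a peak in 4 of 4 E1 and 0 of 4 E0 libraries; the x axis gives the distance of each region from the start of Ppp3ca in kb, points are the E1 and E4 libraries with a peak there, and the digits below count them. The region 28.9 kb before the start has the 4 highest E1 values, and the regions at 63.7, 91.8 and 163 kb have a peak in 3 E4 libraries.

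Within the gene, neighbouring gained regions were 5.91 to 43.5 kb apart, and the one before the gene was 91.7 kb from the next. Among the 8 from 63.7 to 188 kb the gaps were at most 28.6 kb. The median of the mean E1 percentile was 35.8 over the 10 regions, beside 55.8 over the 5579 gained regions of the series, and their median width was 661 bp, beside 551 bp. The nearest gained regions outside the locus ended 168 kb before it and began 49.03 kb after it.

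Some regions missed the criterion by 1 library. Those at 74.8 kb (136407396 to 136408255) and 271 kb (136603516 to 136604926) were present in 4 of 4 E1 and 1 of 4 E0 lists, and those at 221 and 257 kb in 3 E1 and no E0 libraries. The region at 74.8 kb stood at percentiles 66.7, 60.9, 64.4 and 45.4 in E1 replicates 1 to 4 against 8.60 in E0 replicate 1, and had no peak in E4. The region at 271 kb, close behind the approximate end of the gene, stood at 80.1, 81.7, 67.3 and 71.4 in E1 against 43.9 in E0 replicate 2, and at 77.7 in E4 replicate 1. Both ranked above 9 of the 10 gained regions in their mean E1 percentile. At the edges, the outermost regions inside the locus had a peak in 1 E1 library (136284563 to 136284822) and in 1 library of each group (136647217 to 136647518), while the nearest region before it (136274446 to 136275086) had a peak in 4 E1, 1 E0 and 1 E4 libraries.

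A few regions at Ppp3ca ran the other way, with E0 libraries well represented. The clearest lay at 299.9 kb, some way behind the gene (136632681 to 136633207, 527 bp), with scores of 251, 255, 131 and 159 in E0 replicates 1 to 4, 176, 75.2, 62.9 and 76.0 in E1, and 60.8 and 60.1 in E4 replicates 1 and 3. Its percentiles were 84.5, 78.1, 67.8 and 76.7 in E0, 69.1, 28.8, 22.2 and 36.3 in E1, and 12.2 and 30.9 in E4. In these percentiles only E1 replicate 1 reached into the E0 range, and the E4 values lay below all E0 values. The lists differ in length, however. Reduced to equal length, all 4 E0 libraries and E4 replicate 3 kept the peak, and no E1 library did. The mean percentiles in whole lists were 39.1 ± 20.8 in E1 against 76.8 ± 6.90 in E0 (SD, n = 4).

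Near the end of the gene, the region at 262 kb (136594363 to 136595537) had a peak in all 4 E0 libraries, at percentiles 78.0, 77.2, 38.0 and 16.5, in E1 replicates 2 and 4 at 38.9 and 47.1, and in E4 replicates 1 and 2 at 60.7 and 25.0. A weak region at 159 kb was present in E0 replicates 1, 2 and 3, at percentiles 16.6, 29.0 and 2.47, and in no E1 or E4 library. By contrast, the region at 308 kb (136640440 to 136641295) had percentiles of 79.5, 83.4, 73.2 and 66.1 in E1 replicates 1 to 4 against 20.5 and 46.7 in E0 replicates 1 and 4, and 78.7 in E4 replicate 1. The regions at 299.9 and 308 kb, though neighbours, thus differed in opposite directions between E1 and E0.

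Close to the start, the region at 8.67 kb had percentiles of 36.4, 33.5, 18.8 and 57.4 in E1 against 4.77 and 19 in E0 replicates 1 and 2, and 28.3, 14.5 and 2.74 in E4 replicates 1, 3 and 4. The region at 61.7 kb, next to the gained one at 63.7 kb, had 52.9, 49.6, 33.6 and 49.8 in E1 against 1.75, 49.0 and 27.5 in E0 replicates 1, 2 and 4, and 56.5 in E4 replicate 1. At 44.6 kb the library counts were 3 in E1 and 3 in E0, and the E4 libraries with a peak, replicates 1 and 4, stood at 84.1 and 75.2. The 84.1 was the highest percentile of any region inside the gene other than the one at the start. It came from the longest list, so it is not a higher level than values from shorter lists.

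**Figure D4:**
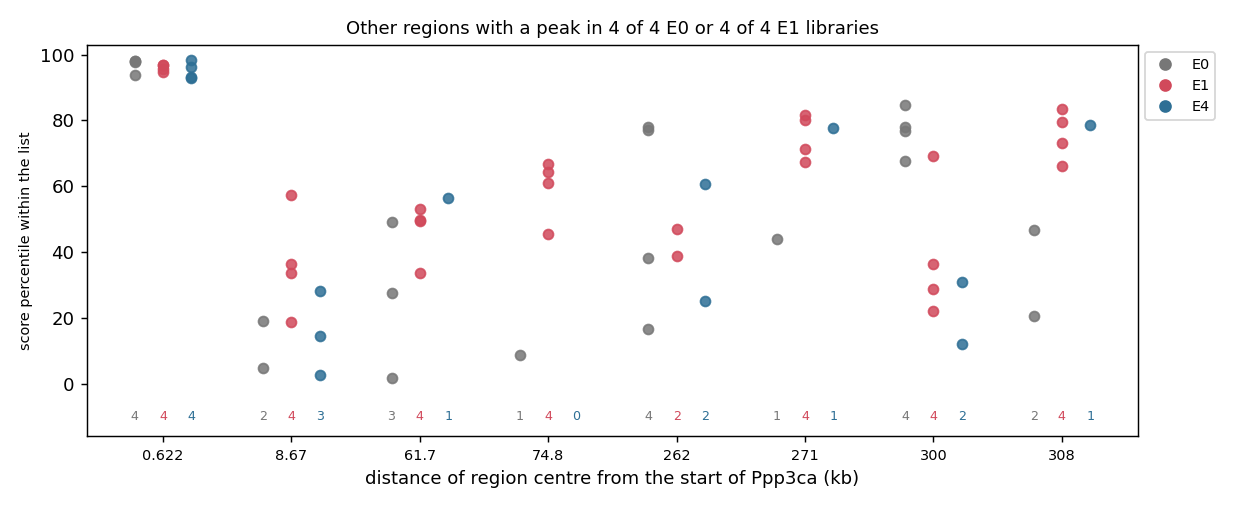
Score percentiles at the other regions of the Ppp3ca locus with a peak in 4 of 4 E0 or 4 of 4 E1 libraries; the x axis gives the distance from the start of the gene in kb, points are libraries with a peak in the order E0, E1, E4, and the digits below count them. The region at the start has 12 values between 92.8 and 98.4, E0 replicates 1, 2 and 4 have the highest values at 299.9 kb, and the E1 values lie above the E0 values at 271 and 308 kb.

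With every list reduced to its 24426 highest scores, few of the peaks inside Ppp3ca were left. The locus then held 16 regions, and the lowest score kept differed from 50 in E4 replicate 3 to 309.7 in E4 replicate 1. Each E0 library had 3 peaks, E1 replicates 1 to 4 had 4, 5, 5 and 5, and E4 replicates 1 to 4 had 5, 5, 4 and 6. The means were 4.75 ± 0.5 in E1 against 3 ± 0 in E0 (SD, n = 4) and 5 ± 0.816 in E4. E1 and E4 thus no longer stood apart, and every library of both had more peaks than any E0 library.

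Among these strongest peaks, 2 regions were gained at E1 from E0 and 1 was lost, out of 9 at the locus with a peak in the 8 libraries, beside 4.0% gained and 1.62% lost in the series. The gained ones were those 28.9 kb before the start and at 271 kb, both outside the approximate extent of the gene, and the lost one was that at 299.9 kb. The region at 308 kb was present in 4 E1 and 1 E0 libraries. None of the 9 regions gained inside the gene with whole lists passed the criterion, and 2 of them were kept in 1 E1 library each, at 91.8 kb in replicate 4 and at 188 kb in replicate 2.

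Which peaks E4 libraries held in the reduced lists differed from mouse to mouse. E4 replicate 1 had the regions at 28.9 kb before the start, 44.6, 271 and 308 kb beside that at the start. E4 replicates 2 and 4 both had those at 63.8, 91.7 and 164 kb, parts of the regions given above as 63.7, 91.8 and 163 kb, and E4 replicate 3 had those at 8.68, 14.7 and 299.9 kb. No E1 library had a peak at 63.8 or 164 kb among its 24426 strongest. At equal list length these 2 regions were thus kept in E4 replicates 2 and 4, and in no E1 library. E4 replicates 1 and 3 did not keep them either.

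The comparison of E4 with E0 asks what is left of the difference in the E4 mice. None of the 41 regions with a peak in these 8 libraries was gained or lost at Ppp3ca, beside 0.165% gained and 0.177% lost in the series. With lists of equal length there was again none of 14, beside 0.792% and 1.05%. At such shares a count of 0 among so few regions says little. In number of peaks at equal list length, E4 replicates 1 to 4 had 5, 5, 4 and 6. Each E0 library had 3, and the ratio of the means was 1.67. Per 10000 peaks of whole lists, E4 replicates 1, 2 and 4 lay above all E0 libraries and replicate 3, at 1.64, below them. These differences were not tested. Of the 10 regions gained at E1, 9 had a peak in E4 replicate 1, 3 in replicate 2, 0 in replicate 3 and 4 in replicate 4. The shares over all 5579 gained regions of the series were 89.9%, 25.6%, 11.9% and 18.6% in the same libraries. E4 replicate 3, which had the shortest list and 4 peaks at the locus, decided the count for the regions at 63.7, 91.8 and 163 kb: without it these 3 were gained at E4. Leaving it out relaxes the criterion, and the share of the series gained that way was not counted. Nothing is read from these 3.

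For E4 against E1, 2 regions were lost, those at 74.8 and 119 kb, and none was gained, out of 55 with a peak in the 8 libraries, beside 0.506% lost and 0.0112% gained in the series. More E4 than E1 libraries had a peak in 7 of the 55 (12.7%), beside 21.6% in the series, and fewer did in 43 (78.2%), beside 58.9%. The locus was chosen for regions present in all E1 libraries, which can only stay equal or fall in E4. Nothing is therefore read from these shares. Neither of the 2 lost regions was called with lists of equal length, where 0 of 15 were gained or lost, beside 0.169% and 0.886%. Without E4 replicate 1, whose list was the longest of all, 10 regions were lost, 6 of them regions gained at E1. Only the 17 regions with a peak in all E1 libraries could be lost, and the 10 gained ones are among them. Leaving out a library relaxes the criterion, and the share of the series lost that way was not counted. Nothing is read from this count.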

How the data were processed

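Each of the 12 files is a list of peaks of 1 ATAC-seq library of mouse dentate gyrus. Every peak carries a score that the authors deposited with it on an unstated scale, which served here for ranking within a library and for filtering. Peak names carry the prefix of MACS, per the file contents, and the submitters' processing notes name Bowtie2 and the build mm9. Not given in these sources are the caller version, its threshold, the read shift for the transposase and the treatment of duplicates. Without the shift, peak edges would lie a little off, and kept duplicates could lengthen a list.

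Peaks on chromosomes 1 to 19 and X were kept (9 to 43 per library lay elsewhere) and merged over the whole series wherever they shared at least 1 bp, in Python 3.11.15 with pandas 2.3.3. bedtools 2.31.1 gave the same 170710 regions, and the code was tested on simulated lists. Regions were counted as gained or lost only at 4 of 4 against 0 of 4 libraries. Groups follow the source names. Alternatives were lists of equal length, a score of at least 100, peaks covering 50% of a region, merging over gaps of up to 100 bp or over 8 libraries, the gene without its flanks, and leaving out each library. Named regions are those gained or lost in any comparison, the region at the start, and the region with the highest mean percentile in each group (0 where there is no peak); the others were named after their values were seen. The members and rules were chosen with earlier results of these data known. Coordinates are mm9, counted from 1. The search for promoter motifs that had been laid down was not run.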

Additional observations from a re-analysis of the deposited data

Results flagged for a closer look

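Of 60 sets of 4 library values at the Ppp3ca locus, 6 had 1 library far from the others. Distance was measured by the gap to the nearest neighbour over the whole range. For independent, normally distributed values this rule flags about 1 set in 20 by chance. The sets here are counts, widths and percentiles from the same 12 libraries, so 6 of 60 is not compared with that rate. E4 replicate 1 had 21193 bp covered by peaks, and the next E4 library 3128 bp. E4 replicate 1 also stood apart at the start of the gene, where its peak was 3327 bp wide and the next 1296 bp. With lists of equal length, E1 replicate 1 had 4 peaks and the other E1 libraries 5. A count that differs by 1 from otherwise equal counts always meets this rule, so the chance rate does not apply to that set. The percentile of the region at the start was 93.8 in E0 replicate 2, and the nearest E0 value was 97.6. In the region at 63.7 kb E1 replicate 3 stood at percentile 7.75, with the nearest at 27.4. At 232 kb the peak of E1 replicate 2 was 590.0 bp wide, and the next 259 bp.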

How the results depend on the processing

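No paired analysis was possible because no result comes from a test and the replicate numbers share nothing but the number in the labels. The 10 regions gained at E1 from E0 at Ppp3ca were reduced to 2 with all lists cut to the shortest of the 12, to 4 with the 8 lists cut to the shortest of the 8, to 2 with a score of at least 100 and to 4 with 50% of a region covered by the library's peaks, and 1, 2, 1 and 3 of the original 10 were among them. The region 28.9 kb before the start was gained in all of these. The count lost at E1 from E0 became 1 with all lists cut to the shortest of the 12. For E4 against E0, the count lost became 1 (the region at 299.9 kb) with a score of at least 100 or with 50% of the region covered. For E4 against E1, the count lost went to 0 with either cut of the lists or a score of at least 100, and to 1 with peaks up to 100 bp apart merged. With 50% of the region covered the count stayed at 2, but the region at 299.9 kb took the place of that at 119 kb. The mean number of peaks was 4.75 in E1 and 3 in E0 with all lists cut, and 9.25 in E1 and 3.25 in E0 with a score of at least 100. Without the 50 kb on each side it was 23.75 in E1 and 10 in E0. Leaving out single libraries relaxes the criterion to 3 libraries in the group and gave 10 to 11 regions gained and 0 to 1 lost for E1 against E0, 0 to 3 gained and 0 to 1 lost for E4 against E0, and 0 gained and 2 to 10 lost for E4 against E1. Shares of the series under this relaxed criterion were not counted. The lost region that appeared without E0 replicate 4, in E1 and in E4, was that at 159 kb. Mean peak numbers then ran from 10 to 13.7 in E0, 27.3 to 29.7 in E1 and 7.33 to 15.3 in E4. Depth limits all of this: absence of a call is not evidence of closed chromatin, and most regions inside the gene ranked low in the lists that held them.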
